A study of Mus musculus with 12 samples.

Results

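The genes of cholesterol and fatty acid synthesis are described here in activated mouse CD4+ T cells with and without Keap1. The 35 members were taken by gene symbol from a written list of pathway genes, out of 32698 named genes in the count file, and all 35 were expressed highly enough to be tested. They include 6 enzymes of the mevalonate pathway and 10 enzymes from squalene synthesis to cholesterol. A further 5 belong to the control system around the sterol regulatory element binding proteins (SREBPs), and 4 make fatty acids from acetate units. The last are 4 desaturases, 3 elongases and 3 genes of sterol transport. Total RNA of naive CD4+ T cells stimulated in culture through CD3 and CD28 was sequenced in 12 libraries. These were 3 from WT cells at 24 h, 3 from Keap1-deficient cells (labelled KKO) at 24 h, 3 from WT at 48 h and 3 from KKO at 48 h, so that antibody stimulation was shared by all groups and no library of resting cells was among them. KEAP1 keeps the transcription factor NRF2 low by sending it to the proteasome, and the study asked how NRF2 bears on T cell expansion and metabolism. The labels give neither the strain, age nor number of mice, nor the Cre driver or the deleted exons, and they do not say whether the numbered replicates are separate animals or cultures. The p-values below therefore measure the spread between these libraries only, which may be technical in part. Xist and Y-linked RNA, given below, differed between libraries of every group, so the libraries of a group did not all come from the same cells.

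Cholesterol is built from acetyl-CoA through mevalonate, isoprenoid diphosphates, squalene and lanosterol, while fatty acids are built from acetyl-CoA and malonyl-CoA and are then elongated and desaturated. Both branches are driven by SREBPs, which SCAP carries from the endoplasmic reticulum to the Golgi for cleavage unless sterols and INSIG proteins hold them back. Activated T cells are known to raise both branches as they grow and divide, since dividing cells need new membrane, and liver X receptors act in the opposite sense on cellular sterol by raising the cholesterol exporters ABCA1 and ABCG1.

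Keap1 itself checked the labels. It stood at 107 ± 1.48 CPM (counts scaled to the library total; SD, n = 3) in WT and 16.6 ± 0.906 in KKO at 24 h, and at 126 ± 5.16 and 21.2 ± 1.21 at 48 h. Library totals ran from 17786532 to 32607675 counts, and the lowest count of any member in any library was 33, for Abca1. Other features separated libraries of the same label. KKO replicate 2 held Xist RNA and almost no Y-linked RNA at both times (Xist 771 CPM at 24 h and 288 CPM at 48 h), as did WT replicates 1 and 2, whereas Y-linked RNA and almost no Xist were found in WT replicate 3 at both times and, among KKO libraries, in replicate 3 at 24 h and replicate 1 at 48 h. Both kinds were present in replicate 1 of KKO at 24 h and in replicate 3 of KKO at 48 h (Xist 76.2 and 105 CPM, and 4 Y-linked genes summing to 125 and 149 CPM), and these are called the 2 mixed libraries below. Counts are also given without them and without KKO replicate 2.

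At 24 h the KKO cells differed from WT in the desaturases, and the rest of the pathway was not called. Of the 35 members, 3 were called higher in KKO (adjusted p under 0.05 over 13196 tested genes, edgeR) and 0 lower, against 1.89% of all tested genes called higher and 0.432% called lower. The 3 genes were Scd1, Fads2 and Scd2. None of the members had an unadjusted p under 0.05 in the lower direction, and DESeq2 and limma-voom also called 0 lower and 3 higher. The median log2 fold change, KKO over WT, was 0.10 over the members and -0.00 over all tested genes. In 7 members all 3 KKO libraries lay above all 3 WT libraries, and in 0 members they lay below; over all tested genes such separation occurred in 9.93% and 9.46%. In bulk RNA of this kind, a change in RNA per cell and a change in the share of cells that express a gene cannot be told apart.

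**Figure D1:**
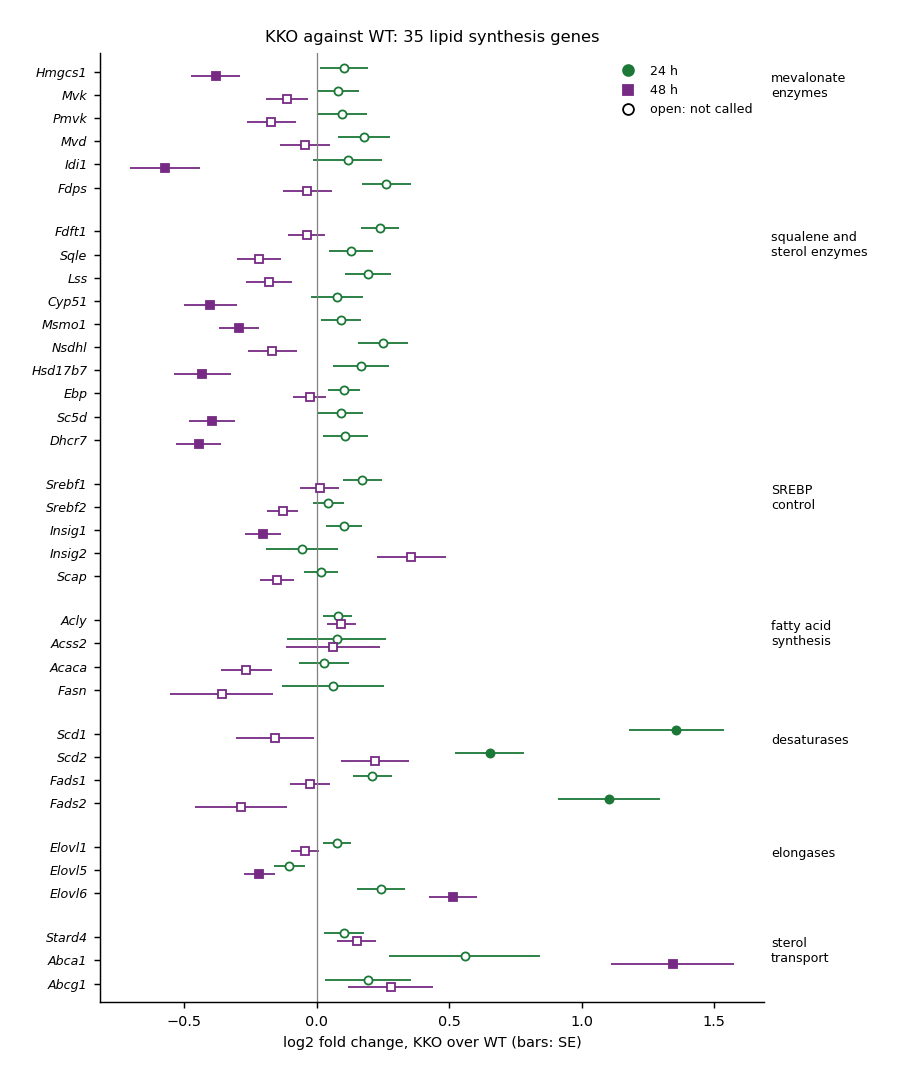
Log2 fold change of KKO over WT (x axis, bars are standard errors) for each of the 35 genes (y axis, grouped by role) at 24 h (green circles) and 48 h (purple squares), with filled symbols for genes called at an adjusted p under 0.05. Scd1, Scd2 and Fads2 are filled on the right at 24 h, and 7 sterol enzymes, Insig1 and Elovl5 are filled on the left at 48 h.

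Scd1 and Scd2 encode stearoyl-CoA desaturases, which place a double bond at the delta-9 position of saturated fatty acyl chains, and they are neighbours on chromosome 19 (GRCm38, chr19:44394455-44407879 on the minus strand and chr19:44293674-44306864 on the plus strand). Scd1 stood at 8.50, 10.3 and 9.57 CPM in WT replicates 1 to 3 at 24 h and at 28.7, 17.9 and 25.9 CPM in KKO. Every KKO library was above every WT library, with KKO replicate 2 the lowest of the 3. KKO exceeded WT 2.56-fold (log2 1.36 ± 0.18, mean and SE here and below, adjusted p = 0.00219). Scd2 stood at 261, 313 and 302 CPM in WT and at 528, 338 and 512 CPM in KKO. Again the groups did not overlap, and KKO replicate 2 lay close to the highest WT library. Its fold change was 1.57 (log2 0.65 ± 0.13, adjusted p = 0.0203). Of the 75-base stretches of Scd1 transcripts, 1.64% are also found in Scd2 and 2.3% in the related gene Scd3. Of those of Scd2, 1.47% are found in Scd1, and Scd2 was far more abundant (WT means at 24 h of 292 and 9.44 CPM). How far shared reads enter the Scd1 values was not tested.

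Fads2 encodes the delta-6 desaturase, the first step in making long polyunsaturated fatty acids, and lies at chr19:10062765-10101746 beside the delta-5 desaturase gene Fads1 at chr19:10182888-10196877. Fads2 stood at 11.2, 16.2 and 12.9 CPM in WT at 24 h and at 34.2, 22.0 and 30.6 CPM in KKO, without overlap. This was a fold change of 2.15 (log2 1.10 ± 0.19, adjusted p = 0.0134). Its neighbour Fads1 stood at 51.0, 52.6 and 53.0 CPM in WT and at 61.5, 56.8 and 62.9 CPM in KKO. These groups did not overlap either, but the log2 difference of 0.21 ± 0.07 did not pass the test (adjusted p = 0.224). The Scd1 call held under all 22 alternatives. Scd2 lost its call when WT replicate 1 or 3 or KKO replicate 1 or 3 at 24 h was left out (adjusted p 0.0582, 0.053, 0.0627 and 0.098), and Fads2 when WT replicate 3 or KKO replicate 3 was (0.0527 and 0.065); in a fit of the 24 h libraries alone Scd2 was not called either (0.177), and without the 2 mixed libraries, only Scd1 of the 3 was called.

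The 16 enzymes of the mevalonate and sterol pathways had log2 fold changes between 0.08 and 0.26 at 24 h, with a median of 0.11. All 16 estimates were above 0, but 0 passed the test in edgeR, DESeq2 or limma-voom, and 4 had an unadjusted p under 0.05. The nearest to the threshold was Fdft1, squalene synthase, at 69.4, 74.8 and 71.0 CPM in WT and 92.0, 74.7 and 87.3 CPM in KKO (log2 0.24 ± 0.07, adjusted p = 0.112). Its KKO replicate 2 lay inside the WT range. The same library lay at the WT level for most of the pathway. Summed over the 16 enzymes, the libraries held 1588, 1835 and 1671 CPM in WT and 2025, 1667 and 1883 CPM in KKO.

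At 48 h no desaturase was called, and part of the sterol pathway was lower in KKO. Of the 35 members, 9 were called lower and 2 higher, against 11.9% of all tested genes called lower and 12.4% called higher at this time. The 9 lower genes were 7 sterol enzymes (Hmgcs1, Idi1, Cyp51, Msmo1, Hsd17b7, Sc5d and Dhcr7), the SREBP retention gene Insig1 and the elongase Elovl5. The 2 higher genes were the cholesterol exporter Abca1 and the elongase Elovl6. The median log2 fold change was -0.15 over the members and -0.00 over all tested genes. In 14 members all KKO libraries lay below all WT libraries and in 5 they lay above, where 16.2% and 17.1% of all tested genes separated in this way.

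All 16 sterol enzymes had estimates below 0 at 48 h (median log2 -0.20), and 7 of 16 passed the test. For each called gene of this branch, a stretch before a RefSeq start site is given from the RefSeq promoter table (GRCm38.p6). That table held 27 of the 35 members and all 8 called sterol and control genes. Each stretch was placed around a match to a motif named next, so every stretch holds a match by choice. The 300-base windows, 250 before to 50 after each start, were searched on both strands for the sterol regulatory element core TCACNCCAC and for the CCAAT box bound by NF-Y, a factor that works with SREBPs. Capitals mark a TCACNCCAC or CCAAT match, the latter read as ATTGG where it lies on the opposite strand. Stretches are 60 bases long where no GENCODE exon overlaps them. Those of Idi1, Cyp51, Msmo1 and Dhcr7 were shortened to 30 bases and lie wholly inside a GENCODE exon, since that annotation places some starts farther upstream than RefSeq does, and for Dhcr7 only 1 of its RefSeq starts was used.
Hmgcs1, chr13:119690189-119690248, plus strand: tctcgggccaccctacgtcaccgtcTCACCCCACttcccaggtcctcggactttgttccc
Idi1, chr13:8885576-8885605, plus strand: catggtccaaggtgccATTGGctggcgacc
Cyp51, chr5:4104709-4104738, minus strand: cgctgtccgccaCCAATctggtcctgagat
Msmo1, chr8:64733616-64733645, minus strand: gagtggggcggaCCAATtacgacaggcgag
Hsd17b7, chr1:169969246-169969305, minus strand: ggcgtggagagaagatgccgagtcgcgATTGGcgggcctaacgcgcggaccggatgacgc
Sc5d, chr9:42264301-42264360, minus strand: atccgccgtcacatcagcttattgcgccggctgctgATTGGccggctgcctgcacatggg
Dhcr7, chr7:143830153-143830182, plus strand: aatccacttccgATTGGtcgtctgtgacct
Insig1, chr5:28071169-28071228, plus strand: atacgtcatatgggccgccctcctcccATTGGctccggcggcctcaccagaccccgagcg

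The exact sterol element core was found in 1 of the 27 member windows, that of Hmgcs1, where it begins 137 bases before the start site, and in 1.24% of all 32851 promoter windows. Counted per gene, as for the members, 1.44% of 27025 genes held it. CCAAT was found in 22 of 27 members (81.5%), in 41.1% of all genes and in 37.4% of all windows. All 13 sterol enzymes in the table held it, called or not, as did all 8 genes printed above and 9 of the 14 other members. The core of the antioxidant response element recognised by NRF2, TGACNNNGC, was found in 5 of 27 (18.5%), among them Hsd17b7 and Dhcr7, in 14% of all genes and in 12.4% of all windows. These matches describe letters in a window and do not show binding.

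Among the mevalonate enzymes, Hmgcs1 and Idi1 fell at 48 h. Hmgcs1, which condenses acetoacetyl-CoA with acetyl-CoA at the head of the pathway (chr13:119690379-119708260), stood at 482, 473 and 433 CPM in WT and at 323, 396 and 346 CPM in KKO. All KKO libraries were below all WT libraries, and the level was 1.30-fold lower (log2 -0.38 ± 0.09, adjusted p = 0.00956). Idi1, the isomerase that makes dimethylallyl diphosphate (chr13:8885501-8892451), stood at 431, 421 and 354 CPM in WT and at 228, 338 and 246 CPM in KKO. It was 1.49-fold lower (log2 -0.57 ± 0.13, adjusted p = 0.00897), the largest decrease among the members, and KKO replicate 2 lay just under the lowest WT library. The other 4 mevalonate enzymes, Mvk, Pmvk, Mvd and Fdps, had log2 fold changes of -0.17 to -0.04 and did not pass.

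Of the enzymes from squalene synthesis onward, 5 of 10 fell. Cyp51, the lanosterol demethylase (chr5:4081145-4104746), stood at 408, 401 and 360.0 CPM in WT and at 250.2, 342 and 293 CPM in KKO, 1.32-fold lower (log2 -0.40 ± 0.10, adjusted p = 0.0115). Msmo1, the C4 methylsterol oxidase that acts after it, stood at 108, 107 and 102 CPM in WT and at 81.0, 89.7 and 87.9 CPM in KKO, 1.22-fold lower (log2 -0.29 ± 0.08, adjusted p = 0.013). Neither gene overlapped between genotypes. Hsd17b7, a ketosteroid reductase of the same demethylation sequence, stood at 40.9, 39.6 and 37.4 CPM in WT and at 24.9, 35.9 and 26.7 CPM in KKO. It was 1.35-fold lower (log2 -0.43 ± 0.11, adjusted p = 0.0117), with KKO replicate 2 just under the WT libraries.

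Sc5d and Dhcr7, the desaturase and the reductase that complete the sterol B ring, fell without overlap between genotypes. Sc5d stood at 85.6, 77.4 and 72.1 CPM in WT and at 55.8, 63.8 and 59.4 CPM in KKO, 1.31-fold lower (log2 -0.39 ± 0.09, adjusted p = 0.00578). Dhcr7 stood at 68.5, 65.9 and 62.0 CPM in WT and at 43.8, 51.5 and 48.9 CPM in KKO, 1.36-fold lower (log2 -0.45 ± 0.09, adjusted p = 0.00264). These 2 were the sterol enzymes whose calls held under all 22 alternatives. The remaining 5, Fdft1, Sqle, Lss, Nsdhl and Ebp, had log2 fold changes from -0.22 to -0.03. Sqle, squalene epoxidase, came closest (log2 -0.22 ± 0.08, adjusted p = 0.0672). Nsdhl and Ebp are X-linked and were not called between genotypes at either time.

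Insig1, which retains the SREBP and SCAP complex in the endoplasmic reticulum and is itself an SREBP target, stood at 175, 170.3 and 162 CPM in WT and at 142, 156 and 142 CPM in KKO at 48 h. The level was 1.15-fold lower (log2 -0.20 ± 0.07, adjusted p = 0.0414). This was the least stable of the called genes: it was lost under 8 of 22 alternatives, the replicate block among them (adjusted p = 0.0623). Its relative Insig2 stood at 16.6, 18.6 and 24.6 CPM in WT and at 28.2, 23.8 and 24.6 CPM in KKO, a log2 difference of 0.36 ± 0.13 in the other direction that did not pass in edgeR (adjusted p = 0.0598). Of the 5 control genes edgeR and DESeq2 called 0 higher at 48 h and limma-voom called 1; Insig2 was the only 1 with an unadjusted p under 0.05 in that direction. Srebf2, which encodes the SREBP that mainly drives sterol genes, had a log2 fold change of -0.13 ± 0.06 (adjusted p = 0.118), and Srebf1, whose product mainly drives fatty acid genes, one of 0.01 ± 0.07 (adjusted p = 0.935). Scap was at -0.15 ± 0.06 (adjusted p = 0.103).

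**Figure D2:**
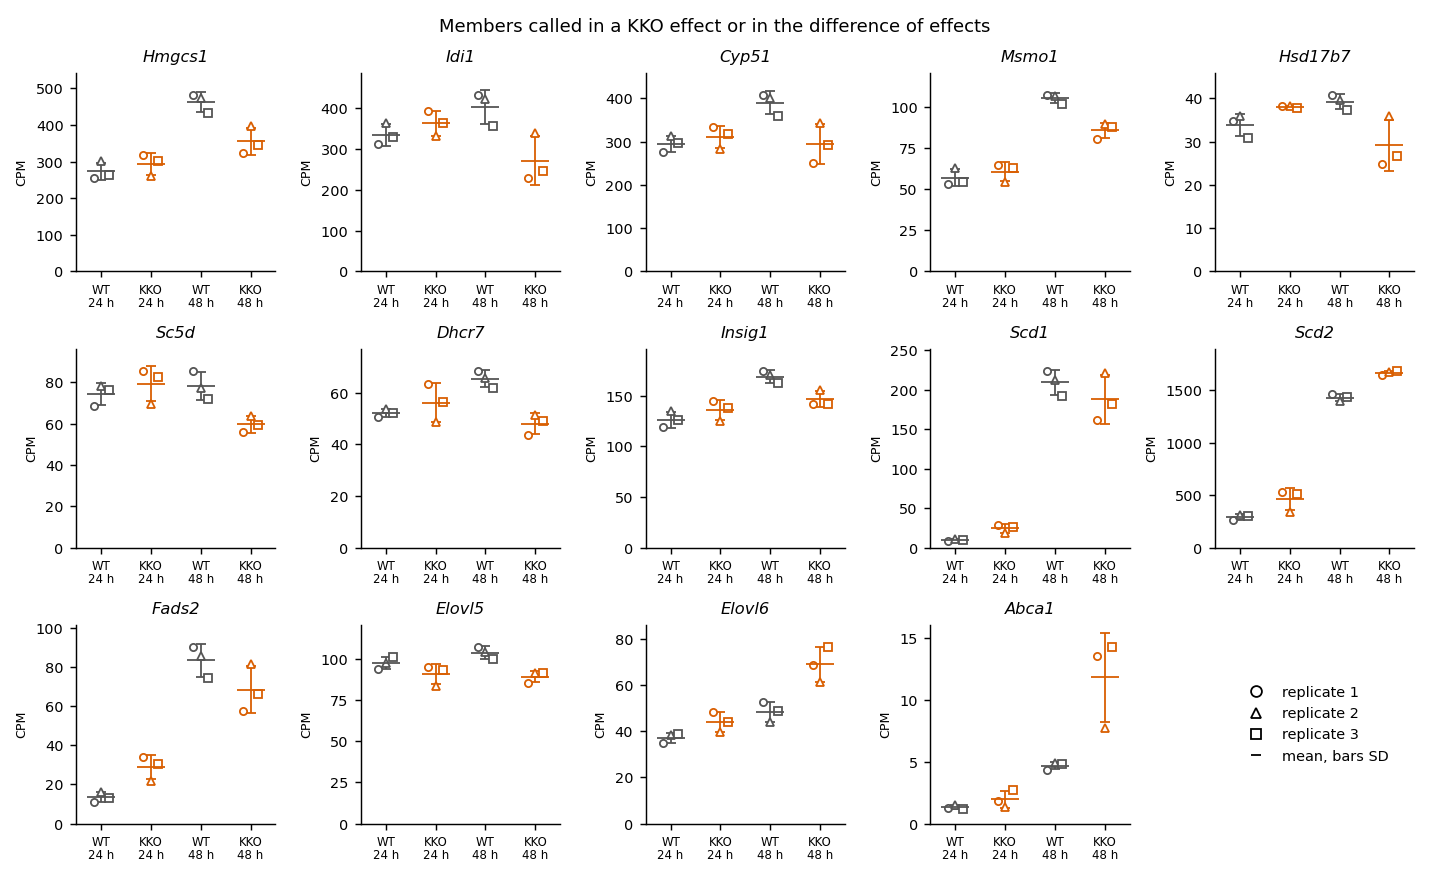
CPM in each library (y axis, from 0) of the 14 members called in a KKO effect, by group (x axis), with marker shape for the replicate number, a horizontal dash for the mean and bars for the SD. The sterol enzymes and Insig1 have their lowest 48 h values in KKO, Scd1, Scd2 and Fads2 are higher in KKO at 24 h, and KKO replicate 2 (triangle) is the KKO library nearest to WT in most panels.

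None of the genes that make palmitate was called between genotypes. ATP citrate lyase (Acly), acetyl-CoA synthetase (Acss2), acetyl-CoA carboxylase (Acaca) and fatty acid synthase (Fasn) had log2 fold changes of 0.03 to 0.08 at 24 h and of -0.36 to 0.09 at 48 h. At 24 h 0 had an unadjusted p under 0.05, and at 48 h 1 did, in edgeR; DESeq2 called 1 of the 4 lower at 48 h and limma-voom 0. Fasn varied widely between replicates at 48 h, from 773, 588 and 454 CPM in WT to 375, 571 and 470.4 CPM in KKO (log2 -0.36 ± 0.19, adjusted p = 0.201). Acaca came closest to a call, at 196, 162 and 160.5 CPM in WT and 124, 165 and 143 CPM in KKO (log2 -0.27 ± 0.10, adjusted p = 0.0563). For both genes the KKO and WT ranges overlapped.

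The elongases moved in different directions at 48 h. Elovl6, which extends palmitate to stearate, stood at 52.5, 44.1 and 48.6 CPM in WT and at 68.9, 61.6 and 76.7 CPM in KKO, 1.43-fold higher without overlap (log2 0.51 ± 0.09, adjusted p = 0.0016). Elovl5, which extends polyunsaturated chains, stood at 107, 104 and 99.8 CPM in WT and at 85.3, 91.2 and 91.6 CPM in KKO, 1.16-fold lower (log2 -0.22 ± 0.06, adjusted p = 0.0176). Elovl1, an elongase of very long chains, was not called (log2 -0.04 ± 0.05). Of the desaturases, 0 of 4 were called at 48 h in edgeR, DESeq2 or limma-voom, and 0 had an unadjusted p under 0.05. Scd2 nevertheless separated by library, at 1466, 1398 and 1433 CPM in WT and 1646, 1672 and 1687 CPM in KKO (log2 0.22 ± 0.13, adjusted p = 0.232).

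Abca1, the exporter that loads cholesterol onto apolipoprotein A-I (chr4:53030787-53159895), had the largest increase of any member at 48 h. It stood at 4.35, 4.86 and 4.79 CPM in WT and at 13.5, 7.69 and 14.3 CPM in KKO, without overlap and with KKO replicate 2 the lowest of its group. The fold change was 2.54 (log2 1.34 ± 0.23, adjusted p = 0.00137). At 24 h it stood at 1.25, 1.51 and 1.21 CPM in WT and at 1.82, 1.36 and 2.72 CPM in KKO, and the log2 difference of 0.56 ± 0.29 did not pass (adjusted p = 0.522). Abcg1, the exporter to high density lipoprotein, had a log2 fold change of 0.28 ± 0.16 at 48 h (adjusted p = 0.218), and Stard4, a carrier of sterol between membranes, one of 0.15 ± 0.08 (adjusted p = 0.156). ABCA1 is also abundant in macrophages. Of 10 macrophage and monocyte markers in the file, 2 were expressed highly enough to be tested, Cd68 and Fcer1g, and both were called higher in KKO at 48 h; the sum over the 10 was 3.09 to 4.60 CPM in WT and at least 5.21 CPM in KKO, Fcgr1 was at 0 in every library, and 4 of the 10 were at 0 in all KKO libraries at 48 h. The part of such cells in the Abca1 result was not tested.

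The calls at 48 h rested on some libraries more than others. Of the 48 h libraries, leaving out KKO replicate 1 left 3 members called lower, and leaving out WT replicate 1 left 5. Omission of WT replicate 2 or KKO replicate 3 left 7, that of WT replicate 3 gave 12, and that of KKO replicate 2 gave 14. With both mixed libraries left out 5 members were called lower, and without KKO replicate 2 at both times 18. Sc5d, Dhcr7, Elovl6 and Abca1 kept their calls in all 22 alternatives; Hmgcs1 and Msmo1 lost theirs without KKO replicate 1 (adjusted p 0.0564 and 0.0728), and Idi1 lost its call without the 2 mixed libraries (0.0563). Cyp51 lost its call without KKO replicate 1 or WT replicate 1 (0.0561 and 0.0507), Hsd17b7 without KKO replicate 1 or 3 or WT replicate 1 or 2 (0.0631, 0.0599, 0.0587 and 0.0523), Elovl5 without KKO replicate 1 or WT replicate 1 (0.0967 and 0.0547), and Insig1 without any of 5 single libraries. In a fit of the 48 h libraries alone Cyp51, Hsd17b7 and Insig1 were not called (0.052, 0.0646 and 0.0785). Sex-linked RNA was not balanced between the genotypes at either time. The libraries with Xist and almost no Y-linked RNA were WT replicates 1 and 2 but only KKO replicate 2. At 48 h, within each genotype, the summed sterol enzymes were higher in these Xist libraries (WT 2686 and 2655, KKO 2326 CPM). They were lowest in the Y-linked library (WT 2428, KKO 1955 CPM), with the mixed KKO library at 2073 CPM. At 24 h the order was not the same. The WT Xist libraries held 1588 and 1835 CPM and the WT Y-linked library 1671 CPM. The KKO Xist library was the lowest of its group at 24 h, at 1667 CPM, against 1883 CPM in the Y-linked and 2025 CPM in the mixed library. How far this imbalance enters the 48 h decreases was not tested.

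KKO replicate 2 was the KKO library nearest to the WT mean for 28 of 35 members at 24 h and for 27 of 35 at 48 h. The median log2 distance from the WT mean over the 16 sterol enzymes was 0.25, -0.00 and 0.14 in KKO replicates 1, 2 and 3 at 24 h, and -0.31, -0.09 and -0.22 at 48 h. By this median the other KKO libraries were above WT at 24 h and below it at 48 h, and KKO replicate 2 was at the WT level at 24 h and between WT and the others at 48 h. The KKO libraries numbered 2 at 24 h and at 48 h are separate, and the labels do not say whether they share a source. Each also differed from the other KKO libraries of its time in Xist and Y-linked RNA, as given above. Their Keap1 levels, 15.7 CPM at 24 h and 20.7 CPM at 48 h, were as low as in the others (16.5 and 17.5 CPM, and 22.5 and 20.2 CPM).

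**Figure D3:**
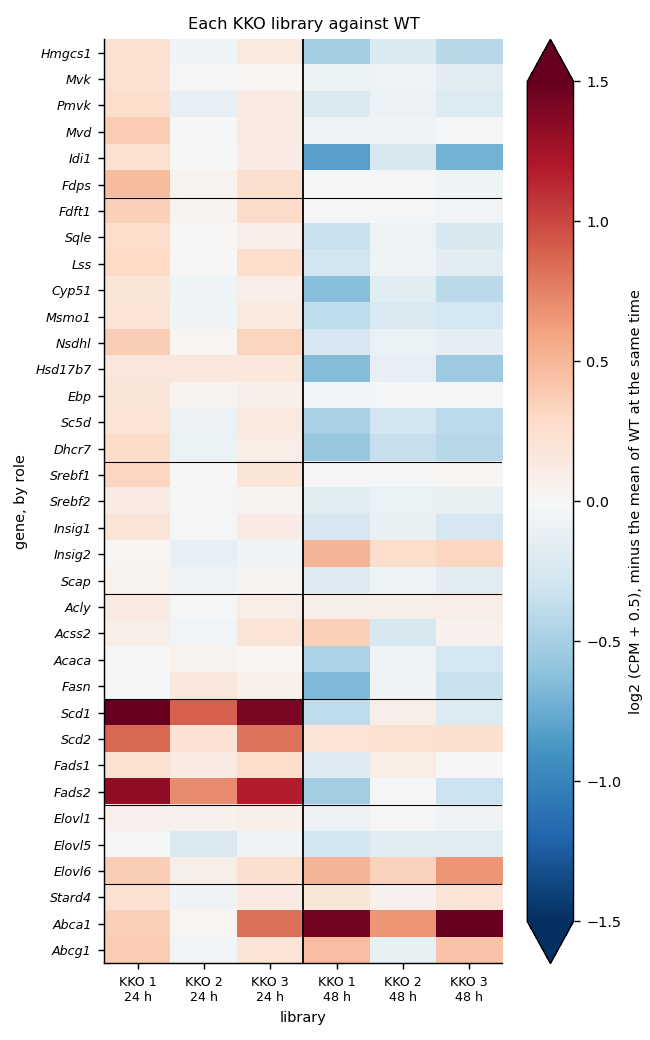
Heat map of log2 (CPM + 0.5) of each KKO library minus the mean of the 3 WT libraries at the same time (colour scale), for the 35 genes (rows, with lines between roles) and the 6 KKO libraries (columns). KKO 2 is the palest column at each time, with sterol enzyme medians of -0.00 and -0.09.

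For 5 members the KKO effect at 48 h differed from that at 24 h by a test of the difference itself, all toward a lower value at 48 h, against 2.72% of all tested genes called in this direction and 1.46% in the other. The difference shares its libraries with both effects given above. Scd1 had the largest difference (log2 -1.51 ± 0.23, adjusted p = 0.00779): it was 2.56-fold higher in KKO at 24 h, and at 48 h it stood at 224, 212 and 192 CPM in WT and 161, 222 and 181 CPM in KKO (log2 -0.16 ± 0.15, adjusted p = 0.47). Fads2 followed (log2 -1.39 ± 0.26, adjusted p = 0.0175), with 90.3, 85.5 and 74.3 CPM in WT and 57.7, 81.5 and 66.1 CPM in KKO at 48 h. Both genes overlapped between genotypes at the later time.

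The other 3 were the sterol enzymes Hsd17b7 (log2 -0.60 ± 0.15, adjusted p = 0.0399), Dhcr7 (-0.55 ± 0.12, adjusted p = 0.022) and Sc5d (-0.48 ± 0.12, adjusted p = 0.039). At 24 h Dhcr7 stood at 50.5, 53.8 and 52.3 CPM in WT and 63.5, 48.7 and 56.5 CPM in KKO. Sc5d stood at 68.5, 78.5 and 76.5 CPM in WT and 85.6, 69.8 and 82.7 CPM in KKO, and Hsd17b7 at 34.9, 35.9 and 30.9 CPM and 38.2, 38.1 and 37.8 CPM. Only Hsd17b7 of the 3 separated by library at that time. These 3 differences were near the threshold: the call was lost under 12 of 21 alternatives for Hsd17b7, 11 for Sc5d and 7 for Dhcr7, most of them the omission of 1 library, with adjusted p up to 0.193, 0.193 and 0.115. Hmgcs1, Idi1 and Msmo1 just missed the threshold for the difference (adjusted p 0.0509, 0.055 and 0.0557). Over the 16 sterol enzymes the median difference was log2 -0.38, and it was -0.01 over all tested genes. No member was called in the other direction; 1 had an unadjusted p under 0.05 there, and DESeq2 and limma-voom also called 0. The count of 5 was 10 with DESeq2 and 20 without KKO replicate 2 at both times, and 0 members were called without the 2 mixed libraries.

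**Figure D4:**
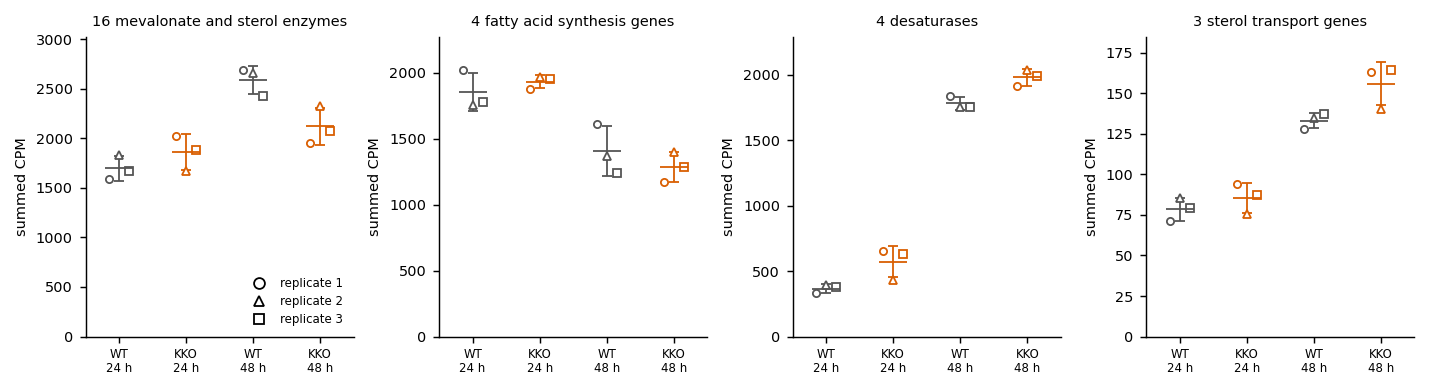
Summed CPM (y axis, from 0) in each library for 4 sets of members, by group (x axis), with marker shape for the replicate number, a dash for the mean and bars for the SD. The sterol enzymes span 1588 to 1835 CPM in WT at 24 h, 2428 to 2686 CPM in WT at 48 h and 1955 to 2326 CPM in KKO at 48 h, while the desaturases reach 1752 CPM or more in every 48 h library.

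From 24 h to 48 h most members changed in both genotypes, as did most of the transcriptome. In WT 26 members rose and 3 fell, where 31.0% and 29.7% of all tested genes did, and the members' median log2 change was 0.42 against -0.00 for all tested genes. In KKO 21 rose and 8 fell, where 34.4% and 33.4% of all tested genes did, with a median of 0.28 against 0.00. Scd1 changed most, 22.1-fold in WT (log2 4.47 ± 0.18, adjusted p = 3.86e-09) and 7.75-fold in KKO (log2 2.95 ± 0.16, adjusted p = 3.88e-08). Fads2 rose 6.18-fold and 2.36-fold, and Scd2 4.90-fold and 3.63-fold. Fads1 did not pass in either genotype. The desaturases together rose from 332, 392 and 377 CPM to 1842, 1752 and 1753 CPM in WT, and from 652, 435 and 632 CPM to 1915, 2037 and 1992 CPM in KKO.

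Of the 16 sterol enzymes, 13 rose in WT and 0 fell (median log2 0.54). Fdps, the farnesyl diphosphate synthase, rose most (2.50-fold, adjusted p = 3.46e-08), followed by Mvd, the mevalonate diphosphate decarboxylase (2.09-fold), and Nsdhl (2.07-fold). In KKO 9 rose and 4 fell (median log2 0.25). The 4 that fell were Idi1 (log2 -0.42 ± 0.13, adjusted p = 0.0126), Sc5d (-0.41 ± 0.09, adjusted p = 0.00064), Hsd17b7 (-0.39 ± 0.11, adjusted p = 0.00536) and Dhcr7 (-0.23 ± 0.09, adjusted p = 0.029). The fall of Dhcr7 was lost under 7 of 22 alternatives, among them the replicate block (adjusted p = 0.064) and the omission of KKO replicate 1 at 24 h (log2 -0.14, adjusted p = 0.143) or at 48 h (-0.16, adjusted p = 0.142). That of Idi1 was lost without KKO replicate 1 or 3 at 48 h (0.0618 and 0.0536), and both Idi1 and Hsd17b7 without the 2 mixed libraries (0.144 and 0.0618). In WT Dhcr7 rose (log2 0.33 ± 0.08, adjusted p = 0.00389), and the other 3 did not pass. Summed over the 16 enzymes, WT libraries reached 2686, 2655 and 2428 CPM at 48 h and KKO libraries 1955, 2326 and 2073 CPM.

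The genes of fatty acid synthesis split in both genotypes. Acly and Acss2, which supply cytosolic acetyl-CoA, rose (log2 0.25 and 1.14 in WT, 0.26 and 1.12 in KKO), while Acaca and Fasn, which build the chain, fell. Acaca fell by 0.66 ± 0.10 on the log2 scale in WT (adjusted p = 3.35e-05) and by 0.95 ± 0.10 in KKO (adjusted p = 7.13e-07). Fasn stood at 1221, 967 and 991 CPM in WT at 24 h and fell by 0.81 ± 0.19 (adjusted p = 0.00403); in KKO it stood at 1029.8, 1172 and 1114 CPM and fell by 1.23 ± 0.20 (adjusted p = 0.000205). Scap fell in both genotypes as well (by 0.32 and 0.49). Srebf1, Srebf2 and Insig2 rose in both, Insig2 by log2 0.83 ± 0.13 and 1.24 ± 0.13, and Insig1 rose in WT (0.42 ± 0.07) but did not pass in KKO (0.11 ± 0.07). All 3 sterol transport genes rose in both genotypes, Abca1 by 3.51-fold in WT and 6.04-fold in KKO.

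**Figure D5:**
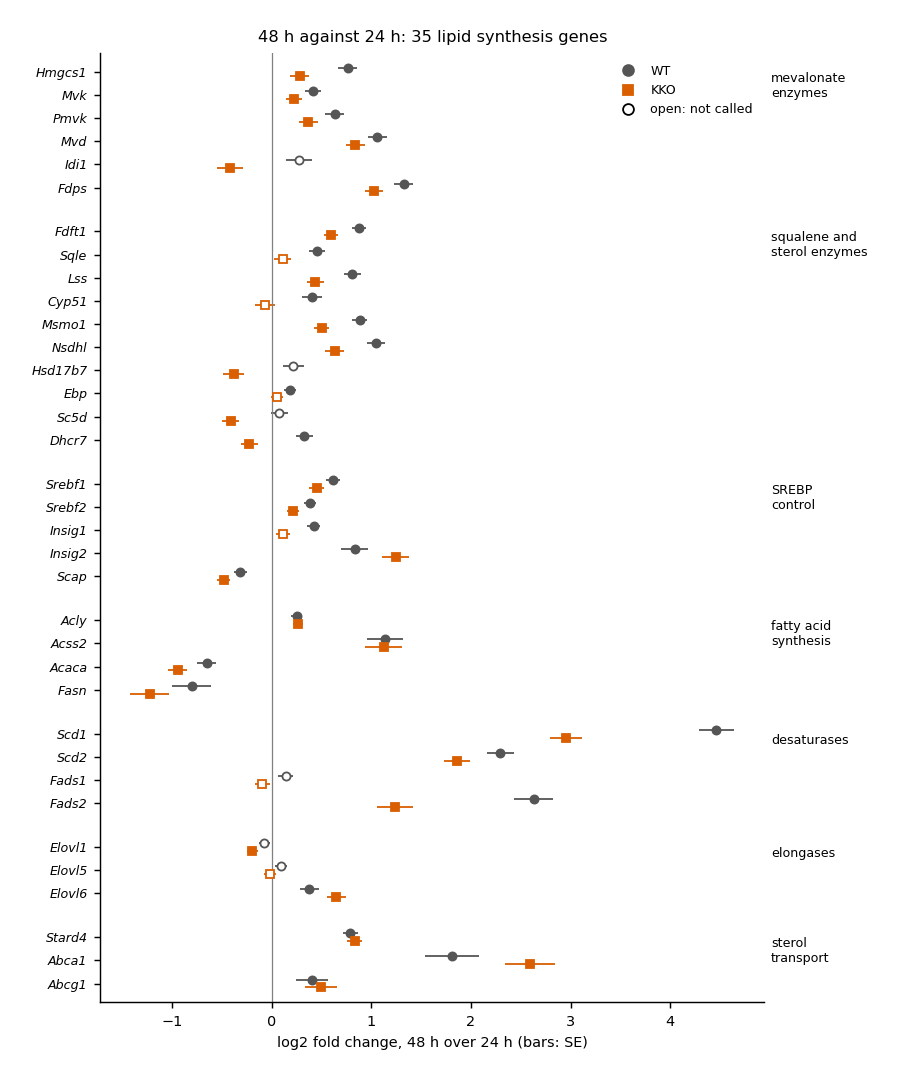
Log2 fold change of 48 h over 24 h (x axis, bars are standard errors) for the 35 genes (y axis, grouped by role) in WT (grey circles) and KKO (orange squares), with filled symbols for genes called at an adjusted p under 0.05. Scd1 lies farthest right, at 4.47 in WT and 2.95 in KKO, Fasn and Acaca lie on the left in both genotypes, and Idi1, Hsd17b7, Sc5d and Dhcr7 lie left of 0 in KKO and right of 0 in WT.

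Further genes of these pathways were tested in the same fit. Over all tested genes, 1.89% were called higher and 0.432% lower at 24 h, and 12.4% and 11.9% at 48 h. Of 16 tested genes of isoprenoid side branches and further sterol steps, 0 were called at 24 h (1 with an unadjusted p under 0.05 in edgeR; 0 called by DESeq2 and limma-voom) and 1 was lower at 48 h, the ubiquinone enzyme Coq2 (log2 -0.21 ± 0.06, adjusted p = 0.0281). Of 15 further regulators of SREBPs and liver X receptors, 0 were called at 24 h (2 with an unadjusted p under 0.05; 0 by either other tool) and 1 was lower at 48 h, the ubiquitin ligase gene Rnf139 (log2 -0.33 ± 0.07, adjusted p = 0.00579). Among 21 genes of sterol uptake, storage and intracellular transport, the lipoprotein receptor gene Lrp8 was higher in KKO at 24 h (log2 0.50 ± 0.08, adjusted p = 0.00348) and at 48 h (0.38 ± 0.08, adjusted p = 0.00526). At 48 h 5 of the 21 were higher, with the cholesterol esterifying gene Soat1 (0.40 ± 0.07, adjusted p = 0.00168) and the receptor gene Vldlr (0.68 ± 0.20, adjusted p = 0.0292) among them, and 1 was lower, the sterol transfer gene Gramd1b, with means of 253 CPM in WT and 164 CPM in KKO (-0.63 ± 0.12, adjusted p = 0.00295).

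Of 28 further genes of fatty acid and triglyceride synthesis, 1 was called at 24 h, the desaturase relative Fads3, which lies beside Fads2 (chr19:10041569-10060110) and had means of 0.472 CPM in WT and 1.16 CPM in KKO (log2 1.29 ± 0.31, adjusted p = 0.041; not called by limma-voom). At 48 h 5 were higher and 4 lower, not far above the shares of all tested genes (12.4% and 11.9%). Me1, a malic enzyme that supplies NADPH and a known NRF2 target, had means of 0.233 CPM in WT and 2.30 CPM in KKO (log2 3.32 ± 0.45, adjusted p = 0.000204). Dgat1, which makes triglyceride, was higher (0.83 ± 0.17, adjusted p = 0.00425), and the acyl-CoA synthetase genes Acsl3 and Acsl5 were lower (-0.39 ± 0.09 and -0.33 ± 0.08, adjusted p 0.00736 and 0.00866). Of 26 genes of fatty acid oxidation, 0 were called at 24 h (2 with an unadjusted p under 0.05; 0 by DESeq2 and limma-voom), and at 48 h 7 were higher and 0 lower, among them the mitochondrial genes Eci1 (0.37 ± 0.08, adjusted p = 0.00467), Acadvl (0.25 ± 0.06, adjusted p = 0.00613) and Hadh (0.37 ± 0.09, adjusted p = 0.00974). No oxidation gene had an unadjusted p under 0.05 in the lower direction at 48 h, and DESeq2 and limma-voom called 0 lower there.

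Markers of other cells moved with genotype too. Beside the counts below, 1.89% of all tested genes were called higher in KKO at 24 h and 12.4% at 48 h. The 6 defining CD4 T cell genes summed to 1140 to 1410 CPM in every library, and 0 of 6 were called in either genotype effect. B cell markers summed to 10.7 to 15.3 CPM in WT and 22.9 to 32.9 CPM in KKO at 24 h, and to 15.1 to 18.9 and 36.2 to 43.8 CPM at 48 h, with 4 and then 7 of 8 tested markers called higher in KKO. Dendritic cell markers include class II antigen presentation genes that B cells share. They summed to 66.3 to 70.3 (WT) and 100 to 107 CPM (KKO) at 24 h. At 48 h the sums were 146 to 164 (WT) and 218 to 235 CPM (KKO). Of 7 tested, 4 were called higher at 24 h and 5 at 48 h. The largest 48 h means were those of Cd74 (WT 80.6, KKO 85.8), H2-Ab1 (52.7, 98.5) and Batf3 (9.04, 22.8). The 48 h mean of Zbtb46 was lower in KKO (WT 4.295, KKO 3.21), while that of Flt3 was higher (0.441, 1.70). Itgax, Xcr1 and Siglech were too low to be tested, with means of at most 0.29 CPM in any group. Clec9a and Cd209a were at 0 in every library. Both CD8 T cell markers were called higher in KKO at 48 h (sums of 8.32 to 10.6 CPM in WT and 12.7 to 13.4 CPM in KKO), as were 3 of 5 markers of gamma delta T and innate lymphoid cells (5.04 to 6.78 CPM in WT and up to 18.6 CPM in KKO, without overlap), of which 1 was higher at 24 h. Natural killer and erythroid markers summed to at most 3.45 and 5.30 CPM in any library. Fibroblast, adipocyte and liver markers summed to at most 0.983 CPM in any library. The part of such cells in the results above was not tested. Reads from overlapping genes are a further limit: annotated exons of other genes cover 26.7% of the exonic bases of Fdps, 18.3% of Fdft1 (Ctsb, on the opposite strand), 12.1% of Hmgcs1 and 9.22% of Idi1, and no source used here says whether the counting used strand.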

How the data were processed

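The authors deposited expected counts per gene as estimated by RSEM after FastQC, with mouse build mm10, per the submitters' processing notes; the series' own text names a human reference, while labels and symbols are of mouse. Versions, the aligner and the annotation are not given in the sources used here. Of the columns, 6 match no sample label and were not used, and a row named unknown (at most 2 counts in a library) was left out. Groups came from the genotype and time labels, with 3 libraries in each of 4.

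Expected counts were rounded and tested in edgeR 4.0.16 (R 4.3.3) with filterByExpr, TMM factors, 1 mean per group over all 12 libraries and robust quasi-likelihood F tests, 2-sided, with Benjamini-Hochberg adjustment over 13196 genes; a gene was called at an adjusted p under 0.05. CPM used TMM-scaled library sizes. The code was tested on simulated data. Alternatives were other scalings and filters, DESeq2 1.42.0, limma-voom (limma 3.58.1), fits of the compared groups only, a replicate block, and libraries left out. Replicates of every group differed by more than counting noise (chi-square over degrees of freedom 5.83 to 23.6), so no library appeared to be deposited in duplicate.

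The members, gene lists and alternatives were chosen with earlier results of these data known. Library values were printed for each member called in a KKO effect or in the difference between the effects, and from each other list at most 4 called genes with the smallest p in each KKO effect were named, except 1 that is not reported here. The exceptions, such as Fads1, Fdft1, Fasn and Acaca, were named to show a group without calls or the nearest to a call. Deviations of same-numbered WT libraries correlated across times at 0.126, 0.103 and 0.343. WT replicate 1 at 24 h correlated best with replicate 2 at 48 h, so pairing of the WT times was not established. The main tests did not pair libraries, and the block left the WT counts at 26 and 3. Gene positions and exons came from GENCODE M21 (GRCm38, the same build as mm10), and promoter windows from RefSeq.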

Additional observations from a re-analysis of the deposited data

Results flagged for a closer look

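For 5 members the KKO effect differed between 24 h and 48 h by the test of that difference in edgeR, adjusted over all tested genes. The change in log2 fold change was -1.51 for Scd1 and -1.39 for Fads2, which were higher in KKO at 24 h and not called at 48 h. For the sterol enzymes it was -0.60 for Hsd17b7, -0.55 for Dhcr7 and -0.48 for Sc5d, which were not called at 24 h and lower in KKO at 48 h. None of these 5 was called without the 2 mixed libraries (both Xist and Y-linked RNA) (adjusted p from 0.0585 for Scd1 to 0.193 for Hsd17b7 and Sc5d), although the differences kept most of their size, at -1.34 for Scd1, -1.22 for Fads2, -0.54 for Hsd17b7, -0.47 for Dhcr7 and -0.42 for Sc5d with 10 libraries in place of 12. Groups of 3 libraries were too small for a formal test of outlying samples, and single libraries were left out in turn, as given above and below.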

How the results depend on the processing

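No call of the 14 members called between genotypes changed direction under the alternatives run, and the other genes were not followed singly. Cyp51, not called over time in KKO in the main fit, had estimates of that change from log2 -0.26 to 0.04. The counts of called members moved as follows. Members called higher at 24 h (3) numbered 1 without the 2 libraries holding both Xist and Y-linked RNA and 9 without KKO replicate 2 at both times, the latter alternative chosen after seeing the data; leaving out single libraries gave 1 to 5, and 0 were lower throughout. At 48 h those without KKO replicate 2 gave 5 higher (2) and 18 lower (9), those without the 2 mixed libraries 5 lower, and single libraries 2 to 4 higher and 3 to 14 lower. Members with a lower difference of effects (5) numbered 8 with upper-quartile factors, 10 with DESeq2, 8 with a filter of 1 CPM in 6 libraries, 0 without the 2 mixed libraries and 20 without KKO replicate 2, against 1 higher there; single libraries gave 1 to 17 lower and 0 to 2 higher. For time, 24 to 28 rose and 3 to 3 fell in WT and 18 to 21 rose and 6 to 10 fell in KKO with single libraries left out, and 5 fell in KKO without the 2 mixed libraries.

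KKO libraries did not correlate with same-numbered KKO libraries across time (0.0287, 0.0852 and 0.0408) or with WT (-0.317 to 0.224 at 24 h, -0.249 to 0.135 at 48 h), so the numbers were not read as pairing these. The replicate block matched same-numbered libraries all the same, across genotypes for the KKO effects and across times within each genotype for the rest. Xist RNA differed between same-numbered KKO libraries at 24 h and 48 h, at 76.2 and 0.0983 CPM for replicate 1 and 0.0426 and 105 CPM for replicate 3. Across times in KKO the block thus paired unlike libraries for these numbers. Since neither the labels, these correlations nor these Xist values give such pairs, a call lost under the block cannot by itself tell whether a gene is unstable. With the block, 3 members were higher at 24 h, and 3 were higher and 8 lower at 48 h. In the difference of effects 4 were lower, and Sc5d lost its call (adjusted p = 0.0635). Insig1 lost its 48 h call and Dhcr7 its fall over time in KKO (0.0623 and 0.064). Insig1 and Elovl5, 1.15-fold and 1.16-fold lower at 48 h, lost their calls under 8 and 2 of 22 alternatives.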
